A study of Homo sapiens with 22 samples.

Results

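The regions described here are 1829 distal N-MYC sites without WDR5, out of 10989 N-MYC sites in DMSO-treated CHP-134 cells. They were chosen by measured values, namely the peaks called in the 3 N-MYC libraries and the 3 WDR5 libraries of these cells. Peaks of the 3 N-MYC lists that shared at least 1 bp were merged, and a merged region was kept when at least 2 libraries had a peak in it. A region counted as distal when its centre lay more than 10 kb from every transcription start site (TSS) of a protein-coding or long noncoding RNA gene, and as without WDR5 when no peak of any of the 3 WDR5 lists touched it. The high N-MYC signal in the DMSO lists, the lack of WDR5 there and the distance from a TSS are therefore set by the choice and are given only as a description.

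CHP-134 and IMR-32 are established human neuroblastoma cell lines with an amplified *MYCN* gene. CHP-134 cells had received dimethyl sulfoxide (DMSO), the vehicle, or a compound for 4 h, and IMR-32 cells were untreated. The name of the latter varies among the labels, and it is written here as the compound only. Chromatin immunoprecipitation followed by sequencing (ChIP-seq) was performed with an N-MYC serum and with a WDR5 antibody, which gave 3 peak lists per antibody for each treatment of CHP-134 and 2 per antibody for IMR-32, 16 lists in all. Each library pools 3 immunoprecipitations, peaks were called in each library on its own, and all coordinates are on the human build hg19. Each CHP-134 condition and each IMR-32 group comes from 1 cell line, and CHP-134 libraries were single reads while IMR-32 libraries were paired-end reads, so that line and sequencing run cannot be told apart.

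N-MYC is a transcription factor of the basic helix-loop-helix family that binds DNA as a dimer with MAX. The dimer prefers the E-box CACGTG and accepts related hexamers such as CATGTG. In neuroblastoma with *MYCN* amplification N-MYC is known to occupy most active promoters and, with rising amounts, also enhancers away from them, where transcription factors of the adrenergic neuronal programme such as HAND2 bind as well. WDR5 is a WD40-repeat protein of the histone methyltransferase complexes that sit at active promoters, and it can bind MYC proteins directly.

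To show what such sites look like, the reference sequence (hg19, plus strand) from 50 bases before to 50 bases after the N-MYC summit is printed for the 10 distal sites that ranked highest among those in all 3 DMSO lists. Rank is the percentile of a peak's fold over local background among all peaks of its own list, where 100 is the highest. It was averaged over the DMSO lists that hold the site, which are all 3 for these 10 sites. Capitals mark CACGTG, which reads the same on both strands, and CATGTG, which reads CACATG on the other strand.
BICD1 intron, chr12:32383615-32383715: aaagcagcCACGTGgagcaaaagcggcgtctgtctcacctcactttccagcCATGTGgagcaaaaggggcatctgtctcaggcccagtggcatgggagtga
AFF3 intron, chr2:100663572-100663672: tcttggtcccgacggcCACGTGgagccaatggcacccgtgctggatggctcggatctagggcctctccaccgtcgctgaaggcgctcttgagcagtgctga
PRDM1 intron, chr6:106517489-106517589: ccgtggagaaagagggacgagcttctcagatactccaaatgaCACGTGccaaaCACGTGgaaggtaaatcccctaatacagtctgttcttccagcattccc
CERKL intron, chr2:182486953-182487053: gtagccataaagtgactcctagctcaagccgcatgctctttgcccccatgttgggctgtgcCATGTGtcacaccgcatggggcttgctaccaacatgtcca
TRIO intron, chr5:14250300-14250400: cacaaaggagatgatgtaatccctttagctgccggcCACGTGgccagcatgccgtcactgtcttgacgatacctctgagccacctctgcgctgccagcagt
HULC intron, chr6:9254651-9254751: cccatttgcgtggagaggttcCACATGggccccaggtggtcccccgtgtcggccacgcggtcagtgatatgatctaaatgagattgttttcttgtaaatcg
IL26 intron, chr12:68603160-68603260: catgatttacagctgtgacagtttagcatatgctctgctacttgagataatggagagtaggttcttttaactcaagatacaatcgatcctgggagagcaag
KCNH7, intergenic, chr2:163823854-163823954: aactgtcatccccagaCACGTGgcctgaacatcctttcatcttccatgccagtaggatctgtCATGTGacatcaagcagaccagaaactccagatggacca
ITPR2 coding exon, chr12:26752140-26752240: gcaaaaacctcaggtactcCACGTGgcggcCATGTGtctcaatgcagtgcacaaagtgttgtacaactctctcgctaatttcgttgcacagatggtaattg
GRM8 intron, chr7:126124283-126124383: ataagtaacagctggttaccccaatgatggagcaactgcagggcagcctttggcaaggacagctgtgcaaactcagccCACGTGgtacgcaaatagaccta
PRDM1 has 2 copies of CACGTG in these bases, BICD1, KCNH7 and ITPR2 have 1 CACGTG and 1 CATGTG each, AFF3, TRIO and GRM8 have 1 CACGTG, and CERKL and HULC have 1 CATGTG and no CACGTG. The IL26 site has neither hexamer in these bases.

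A distal site was typically a narrow region in an intron or between genes. The median width was 537 bp, with a range from 331 to 2437 bp. Peaks of all 3 DMSO libraries were present at 906 sites (49.5%), and peaks of 2 libraries at the rest. By the middle of the region, 909 sites (49.7%) lay in an intron of a protein-coding gene, 196 (10.7%) in an intron of a long noncoding RNA gene and 651 (35.6%) outside genes. Coding exons held 40 sites (2.19%), untranslated exons of coding genes 24 (1.31%) and exons of long noncoding RNAs 9.

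The nearest TSS was at a median distance of 32585 bp, with an interquartile range of 19002 to 63106 bp and the farthest at 681062 bp. A distance of 10 to 25 kb was found for 719 sites (39.3%) and one of more than 250 kb for 27. The nearest TSS belonged to a long noncoding RNA gene at 920 sites (50.3%). Within 1 kb of 147 sites (8.04%) there was a TSS that the rule does not count, of a transcript outside the basic set in 107 cases, of a pseudogene in 25 and of a small or other RNA gene in 15. Just inside the distance threshold stood sites near AFMID, at 10006 bp, and near the long noncoding RNA gene ENSG00000288878, at 10010 bp, with mean percentiles of 33.9 and 45.2. Just outside it stood sites near ENSG00000281732, at 9996 bp, and near MKNK2, at 9965 bp, with mean percentiles of 60.7 and 13.6. On the WDR5 side, the closest distal sites without WDR5 ended 33 bp (LINC01686) and 67 bp (ENSG00000260659) from a DMSO WDR5 peak, and the distal sites kept out by the smallest overlaps shared 6 bp (ENSG00000230676) and 18 bp (CCDC182) with one. The next DMSO WDR5 peak was within 10 kb of 103 sites (5.63%) and at a median of 133 kb. A further 2679 distal regions without WDR5 had a peak in 1 DMSO library and were not included.

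In the DMSO libraries that chose them, the median percentile of fold was 55.4, 50.1 and 51.1 for distal sites in libraries 1, 2 and 3, against 54.8, 47.3 and 50.6 for the 4255 N-MYC sites without WDR5 within 1 kb of a TSS, called promoter sites here. The 325 distal sites with a DMSO WDR5 peak stood higher, at 73.1, 59.4 and 59.2. These values describe the choice and carry no test.

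The base composition set distal sites apart from promoter sites. Within 250 bp of the summit the median G+C content was 51.5% (interquartile range 46.3 to 57.7%) at distal sites and 66.9% (60.9 to 71.7%) at promoter sites, with 58.5% at distal sites with WDR5. Windows 2 kb away had medians of 45.9% around distal sites and 46.1% around promoter sites. The ratio of observed to expected CpG was 0.318 at distal and 0.827 at promoter sites. A window with more than 50% G+C and a ratio over 0.6, as in a CpG island, was present at 232 distal sites (12.7%), 3692 promoter sites (86.8%) and 105 distal sites with WDR5 (32.3%). The distal sites with WDR5 thus lay between the other sets in all 3 measures.

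**Figure D1:**
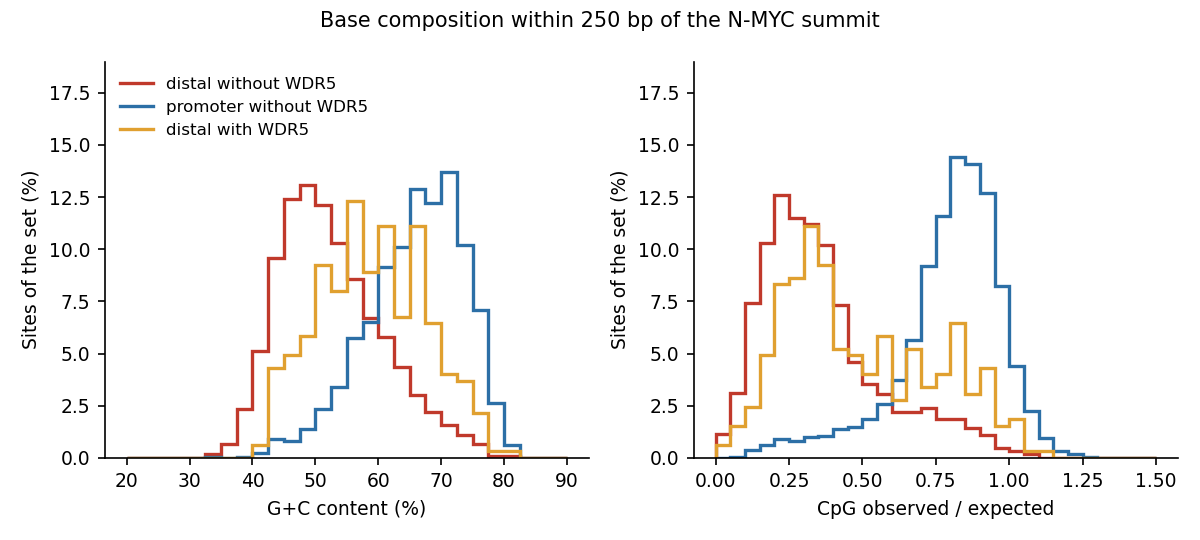
Share of the sites of each set (%) by G+C content (left, %) and by the observed to expected CpG ratio (right) within 250 bp of the N-MYC summit. Distal sites without WDR5 have a median of 51.5% G+C and a CpG ratio of 0.318, promoter sites without WDR5 have medians of 66.9% and 0.827, and distal sites with WDR5 spread over both ranges.

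E-boxes lay under the summits of most distal sites. CACGTG was found within 100 bp of the summit, on either strand, at 626 of 1829 distal sites (34.2%, 95% Clopper-Pearson interval 32.1 to 36.5%), against 2.60% of windows of the same length 2 kb away. When each DMSO library's own summits were used, the share was 34.2%, 37% and 35.7% (35.6% ± 1.36, SD, n = 3). Promoter sites had CACGTG at 23.1% (21.8 to 24.4%), over 2.39% of windows 2 kb away. Distal sites with WDR5 had it at 34.2% (29.0 to 39.6%), the same share as those without. These intervals cover the number of sites only, since sites of 1 cell line are not replicates.

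CATGTG was more frequent at distal sites than CACGTG. It was present at 789 distal sites (43.1%, 40.9 to 45.4%), against 12.6% of windows 2 kb away. At promoter sites it was present at 10.4% (9.51 to 11.4%), against 9.82% of the windows 2 kb away. Distal sites with WDR5 had it at 34.5% (29.3 to 39.9%), against 11.5% of windows 2 kb away, so its excess was not particular to sites without WDR5. Either hexamer was present at 1205 distal sites (65.9%) and 1337 promoter sites (31.4%), and 579 distal sites (31.7%) had CATGTG and no CACGTG.

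Other forms of CANNTG showed a smaller excess at distal sites. CAGATG, a hexamer that neuronal and mesodermal basic helix-loop-helix factors bind, was present at 609 sites (33.3%, over 15.2% of windows 2 kb away), and CAGCTG at 447 (24.4%, over 10.4%). At promoter sites these shares were 7.05% (12.3%) and 12.3% (9.06%). Distal sites with WDR5 had CAGATG at 31.7% (15.5%) and CAGCTG at 24.9% (10.6%), shares close to those of distal sites without WDR5. CATATG was present at 7.93% of distal sites (4.07% away). Among hexamers that are not of this form CACGAG was at 13.4% (3.55%) and CACGCG at 8.42% (0.875%) of distal sites, 3.77 and 9.63 times the shares away. CACGCG holds a second CpG and was at 28.4% of promoter sites (1.56% away). CAGGTG was present at 20.9% of distal sites and at 20.7% of windows 2 kb away, so that its share matched its surroundings. The 4 remaining forms of CANNTG were added after the data had been seen. CAGTTG was at 8.04% (7.63% away), CATTTG at 11.6% (14.8%), CACTTG at 9.19% (12.7%) and CAATTG at 1.69% (2.79%), so that 5 of the 10 forms of CANNTG had shares of 1.95 to 13.2 times those in the windows away, and the other 5 of at most 1.05 times. At least 1 of the 10 forms lay at 1650 distal sites (90.2%), against 67.5% of the windows 2 kb away and 57.7% of promoter sites.

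Motifs of other factors were counted in the same windows, and at distal sites each was less frequent than either CACGTG or CATGTG alone. TAATTA, the core that homeodomain factors recognise, was present at 5.08% of distal sites and 6.31% of windows 2 kb away. AGATAA, which factors of the GATA family bind, was at 8.15% (10.3% away), and TGANTCA, the AP-1 motif, at 7.44% (6.26% away). A core of the CTCF motif, CNAGGNGGC, was at 8.04% (4.07% away). GGGCGG, the Sp1 motif of GC-rich promoters, was at 15.0% of distal sites (4.98% away) and at 57.8% of promoter sites, and CCGGAAG, the ETS motif, at 1.26% and 9.26%. GGACAGCGC, a core of the REST motif, was at 0.219% of distal sites. All motifs were searched on both strands with N as any base. A match is a stretch of letters and not a measured binding event, and the absence of a match says only that these letters were not in the window.

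**Figure D2:**
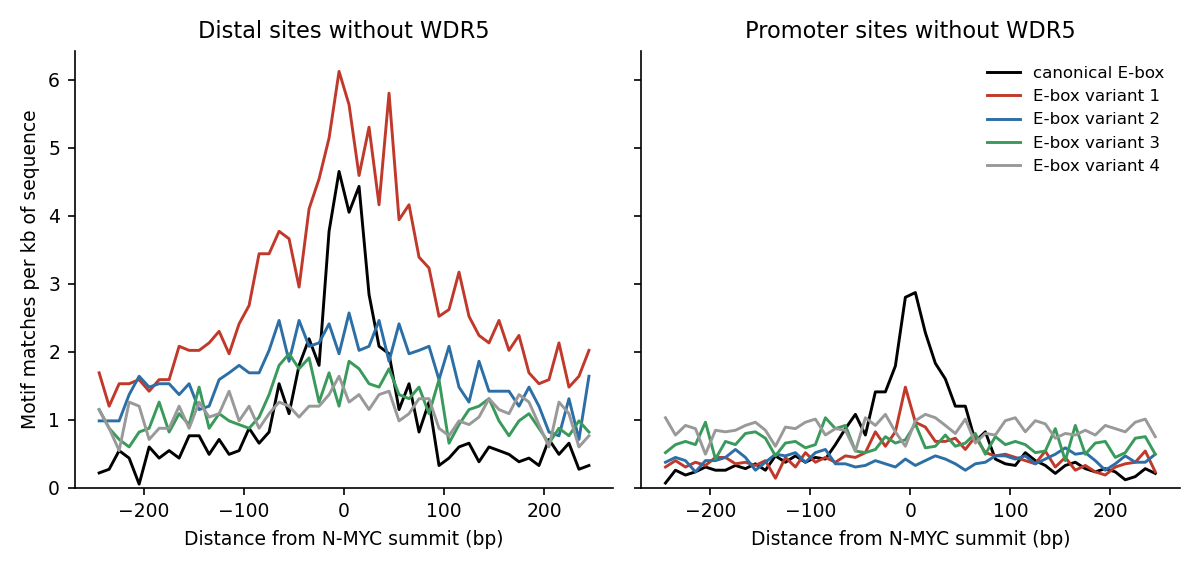
Matches per kb of sequence in bins of 10 bp (vertical axis) against distance from the N-MYC summit in bp (horizontal axis) at distal and at promoter sites without WDR5. The canonical E-box is CACGTG whereas variant 1 is CATGTG, variant 2 is CAGATG, variant 3 is CAGCTG and variant 4 is CAGGTG. Within 50 bp of distal summits CACGTG occurs at 2.96 and CATGTG at 4.83 matches per kb, against 0.399 and 1.64 in the outer 50 bp of the range, up to 250 bp away.

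The hexamers were also concentrated under the summits. Within 50 bp of distal summits CACGTG occurred 2.96 times per kb, against 0.399 in the outer 50 bp of a range of 250 bp, a ratio of 7.41. The ratio was 2.95 for CATGTG, 1.97 for CAGATG, 1.96 for CAGCTG and 1.39 for CAGGTG. At promoter summits it was 8.68 for CACGTG, 2.33 for CATGTG, 1.06 for CAGCTG and 0.964 for CAGATG. The profile of CACGTG therefore had a sharp peak under the summits of both sets, whereas CATGTG stood over a broader stretch and reached 4.83 matches per kb within 50 bp of distal summits and 0.820 within 50 bp of promoter summits.

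Some distal sites carried arrays of E-boxes. At least 3 matches of CACGTG or CATGTG that did not overlap each other were found within 100 bp of the summit at 152 distal sites (8.31%), against 0.355% of the windows 2 kb away, 0.682% of promoter sites and 4.62% of distal sites with WDR5. At 43 of the 152 sites (28.3%) the same step between successive matches occurred more than once. These counts were made, and the sites named, after the data had been seen. The site in the intron of ADD2, which codes for a cytoskeletal adducin, had 7 matches, most of them 20 bp apart. The site in ZNF407, a zinc finger gene, had 12, and the site near GPC3, which codes for a cell-surface proteoglycan, had 8. Their sequences are shown for these repeated units, with the same capitals as above.
ADD2 intron, chr2:70974556-70974656: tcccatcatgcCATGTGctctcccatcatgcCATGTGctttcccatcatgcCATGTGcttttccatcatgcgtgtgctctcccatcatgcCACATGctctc
ZNF407 intron, chr18:72497793-72497893: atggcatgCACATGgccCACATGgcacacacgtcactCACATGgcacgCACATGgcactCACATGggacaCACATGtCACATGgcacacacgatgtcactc
GPC3, intergenic, chrX:133210050-133210150: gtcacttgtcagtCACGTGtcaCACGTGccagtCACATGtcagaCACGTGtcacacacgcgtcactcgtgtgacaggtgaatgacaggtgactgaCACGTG
The ADD2 site was listed in all 8 N-MYC lists, at percentiles of 89.4, 98.7 and 99.7 with DMSO, 91, 99.3 and 99.5 with the compound, and 95.9 and 98.4 in IMR-32. The ZNF407 site ranked at 99.8, 95.1 and 98.7 with DMSO and at 98.9, 93.5 and 99.1 with the compound, but at 4.44 in the first IMR-32 list, and it was not listed in the second. The GPC3 site ranked at 92.4, 93.8 and 89.6 with DMSO and at 92.7, 68.8 and 91.7 with the compound and was in neither IMR-32 list. The sites shown ranked above the 152 sites as a set, whose median of the mean DMSO percentile was 50.6. That median was 53.3 for distal sites with 1 or 2 matches and 41.1 for those with none. Leaving out the 152 sites, CACGTG was present at 31.8% and CATGTG at 38.2% of the other 1677 distal sites.

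The first comparison asked how many distal sites were called again in lists that took no part in choosing them. In compound-treated CHP-134 cells, 1263 distal sites (69.1%) were listed in N-MYC library 1, 381 (20.8%) in library 2 and 1379 (75.4%) in library 3. Of all 10989 N-MYC sites, 77.4%, 26.0% and 83.0% were listed there. In IMR-32 cells, 672 distal sites (36.7%) were listed in library 1 and 422 (23.1%) in library 2, against 51.1% and 36.6% of all N-MYC sites. Distal sites were thus below the background in each of the 5 lists. Compound library 2 holds 2964 peaks, against 11249 and 12313 in the other compound lists, and its share was the lowest of the 5. A site that is not listed had no peak past the authors' threshold there, which does not show that N-MYC was absent, and the read depth behind each list is unknown. The mean was 55.1% ± 29.8 (SD, n = 3) over the compound lists, which is 72.2% without library 2, and 29.9% ± 9.67 (SD, n = 2) over the IMR-32 lists.

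**Figure D3:**
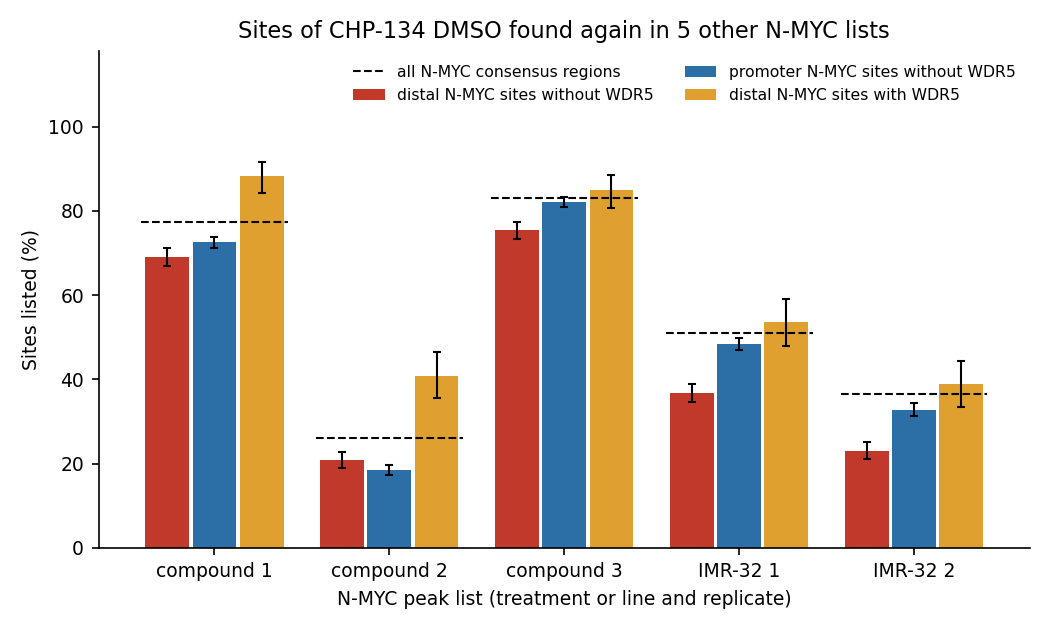
Share of sites listed (%, bars with 95% exact binomial intervals) in 3 compound and 2 IMR-32 N-MYC lists for distal sites without WDR5, promoter sites without WDR5 and distal sites with WDR5, with a dashed line for all N-MYC sites of CHP-134 DMSO. Distal sites without WDR5 stand below the dashed line in every list, from 20.8 to 75.4%, and below distal sites with WDR5 in every list.

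Promoter sites without WDR5 were listed at 72.5%, 18.4% and 82.1% in the compound lists and at 48.4% and 32.8% in the IMR-32 lists, so they too stood below all N-MYC sites in each list. The difference, distal minus promoter, averaged -5.83 percentage points over the 5 lists, was negative in 4 of them and ran from -11.7 to 2.43 (exact permutation test by sign changes, two-sided, p = 0.125, where 0.063 is the smallest p that 5 lists allow). Sites were then compared within 4 bins of DMSO rank that hold 457 or 458 distal sites each, since the share listed grew with that rank. This rank leaves out DMSO lists without a peak, so the bins do not match sites for the number of DMSO lists that hold them. All 3 DMSO lists held 49.5% of distal sites, 59.8% of promoter sites and 66.8% of distal sites with WDR5. Within bins the mean difference was -6.67 points (p = 0.125, same exact test), with -4.24, 1.48 and -7.36 in the compound lists and -12.6 and -10.7 in the IMR-32 lists.

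The largest gaps were among the highest-ranking sites in IMR-32. In the top bin of DMSO rank, 53.7% and 39.3% of 458 distal sites were listed in the IMR-32 libraries, against 76.6% and 63.9% of 1000 promoter sites. In the lowest bin the shares were 23.0% and 13.1% for distal and 27.8% and 14.6% for promoter sites. In compound libraries 1 and 3 the top bin was listed at 89.7% and 90.0% for distal and 94.6% and 97.4% for promoter sites. The ratio of the distal to the promoter share was 0.953, 1.13 and 0.918 in the compound lists and 0.759 and 0.703 in the IMR-32 lists, which do not overlap (p = 0.1 in an exact permutation test, two-sided, and no p below that can be had from 3 lists against 2). This ratio was chosen after the shares had been seen. Treatment, line and read type all differ between these groups of lists and cannot be told apart.

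Distal sites with WDR5 had the higher share in every list. They were listed at 88.3%, 40.9% and 84.9% in the compound lists and at 53.5% and 38.8% in the IMR-32 lists. The difference, without minus with WDR5, was negative in 5 of 5 lists and averaged -16.3 points (two-sided exact permutation by sign changes, p = 0.063, where no lower p can be reached). Averaged over the bins of DMSO rank it was -10.4 points and again negative in 5 of 5 lists (exact p = 0.063), with values from -15.4 to -5.42. It did not hold in every bin. In bin 2 the shares without WDR5 were 64.6%, 8.97%, 72.2%, 33.5% and 17.7%, against 79.7%, 8.47%, 71.2%, 30.5% and 16.9% with WDR5. Only compound library 1 had the lower share without WDR5 there. Bins 1 to 4 hold 59, 59, 75 and 132 distal sites with WDR5. This comparison was added after the data had been seen.

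**Figure D4:**
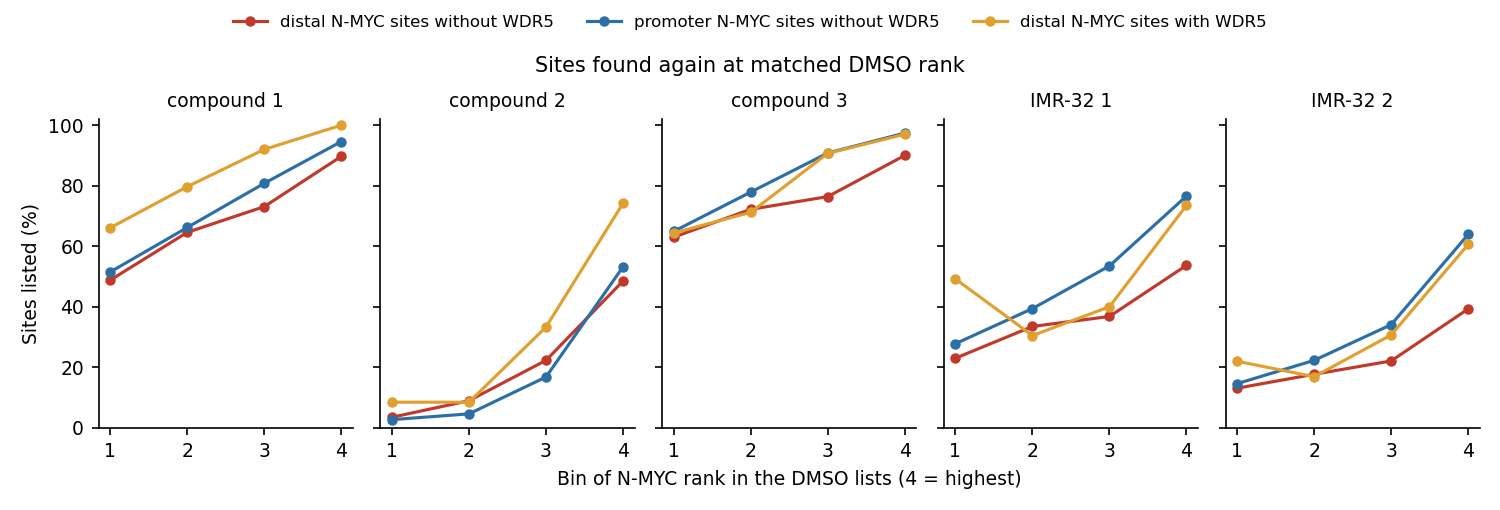
Share of sites listed (%, vertical axis) by bin of N-MYC rank in the DMSO lists (horizontal axis, from 1, the lowest, to 4) in each of the 5 lists, for the same 3 sets. Distal sites without WDR5 rise from 23.0 to 53.7% in IMR-32 library 1, where promoter sites rise from 27.8 to 76.6%.

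Where a distal site was called again, its peak tended to be narrower and its summit nearer to the DMSO summit than at promoter sites. The median width of distal peaks was 477, 402 and 453 bp in the compound lists and 333 and 310 bp in the IMR-32 lists, against 555, 430, 552, 366 and 333 bp for promoter peaks. The distal median was lower in 5 of 5 lists (mean difference -52.2 bp, exact permutation test by sign changes, p = 0.063). At distal sites with WDR5 the median width was above that of promoter sites in each list, from 357 to 621 bp. Sites without WDR5 that lay 1 to 10 kb from a TSS stood between distal and promoter sites in each list. Their medians in IMR-32 were 348 and 314 bp. The median distance between the list's summit and the DMSO summit was 37, 34.0 and 36.0 bp in the compound lists and 40.0 and 39.5 bp in IMR-32 for distal sites, and 54.0, 44, 50.0, 56.0 and 53.0 bp for promoter sites. It was shorter at distal sites in 5 of 5 lists (mean difference -14.1 bp, same exact test, p = 0.063). The shorter distance was not particular to distal sites without WDR5. At distal sites with WDR5 its medians ran from 33 to 41 bp over the 5 lists. At sites without WDR5 that lay 1 to 10 kb from a TSS they ran from 36 to 43 bp. Summits within 50 bp of each other were found at 58.6 to 67.5% of the distal and 46.5 to 56.1% of the promoter sites listed. The width and summit comparisons were added after the data had been seen.

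The treatment comparison needs DMSO libraries that did not choose the sites. Distal sites were therefore built from each pair of DMSO libraries by the same rule and looked up in the third. They were found at 909 of 1027 sites (88.5%) in DMSO library 1, 907 of 1492 (60.8%) in library 2 and 905 of 1125 (80.4%) in library 3. Averaged over the 3 site sets, the share listed was 76.8%, 30% and 83.5% in compound libraries 1, 2 and 3. Each DMSO library was looked up with 1 set only, so the DMSO and compound shares do not rest on the same sites. The mean was 76.6% ± 14.3 (SD, n = 3) with DMSO and 63.4% ± 29.2 (SD, n = 3) with the compound. The difference of 13.2 percentage points was within the spread of the libraries (exact permutation test, two-sided, p = 0.6, where 0.1 is the smallest possible). Without compound library 2 it was -3.54 points. Promoter sites treated in the same way gave 83.4% ± 13.4 with DMSO and 64.4% ± 34.7 with the compound, a difference of 19 points (exact permutation p = 0.6, n = 3 and 3).

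The distal share of each list's own peaks was compared next. Peaks more than 10 kb from a TSS that touched no DMSO WDR5 peak made up 21.9%, 16.6% and 19.8% of the DMSO lists, 19.7%, 13.9% and 20.3% of the compound lists, and 21.0% and 17.5% of the IMR-32 lists. With all peaks the groups overlapped. DMSO minus compound was 1.47 percentage points (exact permutation test, two-sided, p = 0.6), and DMSO minus IMR-32 was 0.172 points (exact permutation p = 1.00). In each group the shortest list had the lowest distal share. With equal numbers of peaks per list, those of the highest fold, the differences turned negative, at -1.66 points for the compound (exact permutation p = 0.300) and -1.57 points for IMR-32. There the DMSO shares all lay below the IMR-32 shares (exact permutation p = 0.1, the smallest that 3 lists against 2 can give). Without compound library 2 the difference to the compound was -0.583 points.

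Sites with the canonical E-box had the higher share listed in each list. Those with CACGTG were listed at 71.1%, 30.5% and 79.7% in the compound lists and at 41.9% and 29.2% in IMR-32, against 68.0%, 15.8%, 73.2%, 34.1% and 19.9% for sites without. The share was higher with CACGTG in 5 of 5 lists, by 8.30 points on average (exact permutation test by sign changes, p = 0.063). CACGTG also became more frequent with DMSO rank, from 24.9% of the lowest bin through 32.8% and 35.7% to 43.4% of the highest. Within bins of rank the difference was 4.34 points and positive in 4 of 5 lists (exact p = 0.125), with -1.53 in compound library 1. For CATGTG the difference was 1.03 points (range -2.20 to 4.16, exact p = 0.438), for CAGATG it was 0.698 points (exact p = 0.125), and for CAGCTG it was -2.20 points and negative in 4 of 5 lists (exact p = 0.125). CATGTG was present at 40.0%, 38.1%, 45.3% and 49.1% of the sites from the lowest to the highest bin. Sites that held at least 3 copies of CACGTG or CATGTG were listed at 68.4%, 32.2%, 75%, 43.4% and 29.6% in the 5 lists, sites with 1 or 2 copies at 71.3%, 24.6%, 77.0%, 38.7% and 25.5%, and sites with neither at 65.4%, 11.7%, 72.8%, 31.9% and 17.5%. Sites with at least 3 copies minus all other distal sites gave 5.15 points on average, above 0 in 3 and below 0 in 2 of the 5 lists (exact p = 0.250). These splits by hexamer were chosen after the data had been seen.

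Over the 8 N-MYC lists, 139 distal sites (7.60%) were listed in all and 175 (9.57%) in no more than 2. Of the sites in no compound list 16.1% were in at least 1 IMR-32 list, and this share was 28.4%, 44.4% and 67.0% for sites in 1, 2 and 3 compound lists. At least 1 IMR-32 list held 741 sites (40.5%), and both held 353 (19.3%). The 139 sites in all 8 lists had CACGTG at 58.3% and CATGTG at 45.3%, against 31.3% and 42.6% of the 1088 sites in neither IMR-32 list. Their median DMSO percentile was 78.6, against 43.7, so rank differed along with the hexamer. A group of 535 sites (29.3%) was listed in at least 2 compound lists and in neither IMR-32 list, with a median DMSO percentile of 53.0 and CACGTG at 32.5%. These counts over several lists have no matching share of all N-MYC sites here, so they are not read as particular to distal sites. Single IMR-32 lists held 51.1% and 36.6% of all N-MYC sites, against 36.7% and 23.1% of distal sites.

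WDR5 peaks were few at these sites in the lists that did not choose them. Compound WDR5 library 1 listed 104 distal sites (5.69%), library 2 listed 0 (a count of 0 allows up to 0.164%) and library 3 listed 5 (0.273%), against 22.9%, 0.127% and 3.07% of all N-MYC sites. The IMR-32 WDR5 libraries listed 14 (0.765%) and 9 (0.492%), against 9.35% and 7.41% of all N-MYC sites. All N-MYC sites include those with a DMSO WDR5 peak, so part of this gap is set by the choice. Promoter sites without WDR5 were at 16.1%, 0% and 0.870% in the compound lists and at 3.71% and 2.09% in IMR-32. Distal sites with WDR5 were at 7.69% and 5.85% in IMR-32. Compound WDR5 libraries 2 and 3 hold 15 and 401 peaks, so few sites of any set could be listed there. In total 120 distal sites (6.56%) had a WDR5 peak in at least 1 of these 5 lists and 11 in at least 2. Both IMR-32 WDR5 lists held 5 of them, which are named here although they were picked after their values were seen: sites near NKAIN1 and RHOU, and in introns of TLN2, RHBDL3 and STOX2. The RHOU site lay 186 bp and the STOX2 site 75.5 bp from a TSS that the rule does not count. The 5 sites in compound WDR5 library 3 were in an intron of SDCCAG8, in CRYBB2P1, near CCDC167, in PSMG3-AS1 and near CYP7B1. Sites resembling CpG islands were listed at 9.05% in compound WDR5 library 1 and the other distal sites at 5.20%.

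The sites with the highest rank stayed at the top in most lists. The first, in an intron of BICD1, which codes for a dynein adaptor, was at percentiles of 99.7, 99.9 and 98.4 with DMSO, 99.4, 99.5 and 97.3 with the compound, and 98.9 and 98.1 in IMR-32. Its folds over local background were 20.6, 22.9 and 15.1 with DMSO, 15.9, 15.0 and 13.6 with the compound, and 16.2 and 15.1 in IMR-32, each to be read only within its own list. It lay at chr12:32383221-32383964, 109 kb from a TSS. All 8 lists had it in their top 3%.

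The site in AFF3 (chr2:100663325-100663924), a gene of the AF4 family of transcription elongation factors, was at 99.9, 99.1 and 98.9 with DMSO, 99.8, 99.5 and 99.4 with the compound, and 99.0 and 91.2 in IMR-32. The site in overlapping introns of ATG5 and PRDM1 (chr6:106517241-106517838), of which PRDM1 codes for a zinc finger transcriptional repressor, was at 98.8, 99.1 and 99.3, then 99.2, 99.1 and 99.7, then 95.2 and 98.1 in the same order. These sites were 57.6 and 16.7 kb from a TSS, and both had CACGTG. The AFF3 site also had a WDR5 peak in 1 of the 5 WDR5 lists outside the choice.

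TRIO, a gene for a guanine nucleotide exchange factor that acts in axon growth, held 2 of the top sites, at chr5:14249687-14250717 and chr5:14264539-14265146. The first was at 98.8, 97.0 and 99.4 with DMSO, 98.9, 87.7 and 98.7 with the compound, and 93.8 and 94.8 in IMR-32, and the second at 99.7, 99.6 and 88.7, then 99.3, 94.7 and 93.3, then 93.3 and 92.4. Both were at or above a percentile of 87.7 in all 8 lists. The second was picked for its high rank over the compound and IMR-32 lists among sites in all 8 lists. Its values there are therefore set by the pick.

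The site near KCNH7 (chr2:163823634-163824151), a voltage-gated potassium channel gene, was at 98.9, 99.5 and 96.0, then 97.2, 97.7 and 97.6, then 94.0 and 93.5. The site in a coding exon of ITPR2 (chr12:26751949-26752466), which codes for an inositol trisphosphate receptor, was at 96.0, 99.6 and 98.7, then 92.1, 99.6 and 93.2, then 97.5 and 85.9. The site near APCDD1L-DT (chr20:57032234-57032942) was at 94.0, 96.8 and 93.3, then 92.9, 94.3 and 93.0, then 95.7 and 88.1. It was picked in the same way as the second TRIO site, so its compound and IMR-32 values are set by the pick. In each of these the compound and DMSO percentiles overlapped.

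A few of these sites had lower percentiles or no peak in IMR-32. They were picked for high DMSO percentiles, and the IMR-32 lists are shorter, with 8286 and 5242 peaks against 9125 to 15286, so these values are set side by side without a comparison. The site in an intron of the long noncoding RNA gene HULC (chr6:9254426-9254953) was at 97.2, 98.8 and 98.8 with DMSO and 98.8, 98.4 and 98.7 with the compound, but at 57.4 and 76.3 in IMR-32. The site in IL26 (chr12:68602793-68603654), a cytokine gene, was at 98.0, 98.3 and 98.4, then 96.2, 95 and 98.6, then 60.3 and 84.8, and it too had a WDR5 peak in 1 list outside the choice. The site in GRM8 (chr7:126124075-126124601), a glutamate receptor gene, was at 98.3, 99.2 and 96.4, then 97.9, 97.4 and 98.6, and was in neither IMR-32 list. Of the 10 sites with the highest DMSO rank 9 were listed in all 5 lists outside the choice, and 7 were also among the 10 that ranked highest over those 5 lists. Of all distal sites 142 (7.76%) were in all 5 of these lists, and the share listed grew with DMSO rank.

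**Figure D5:**
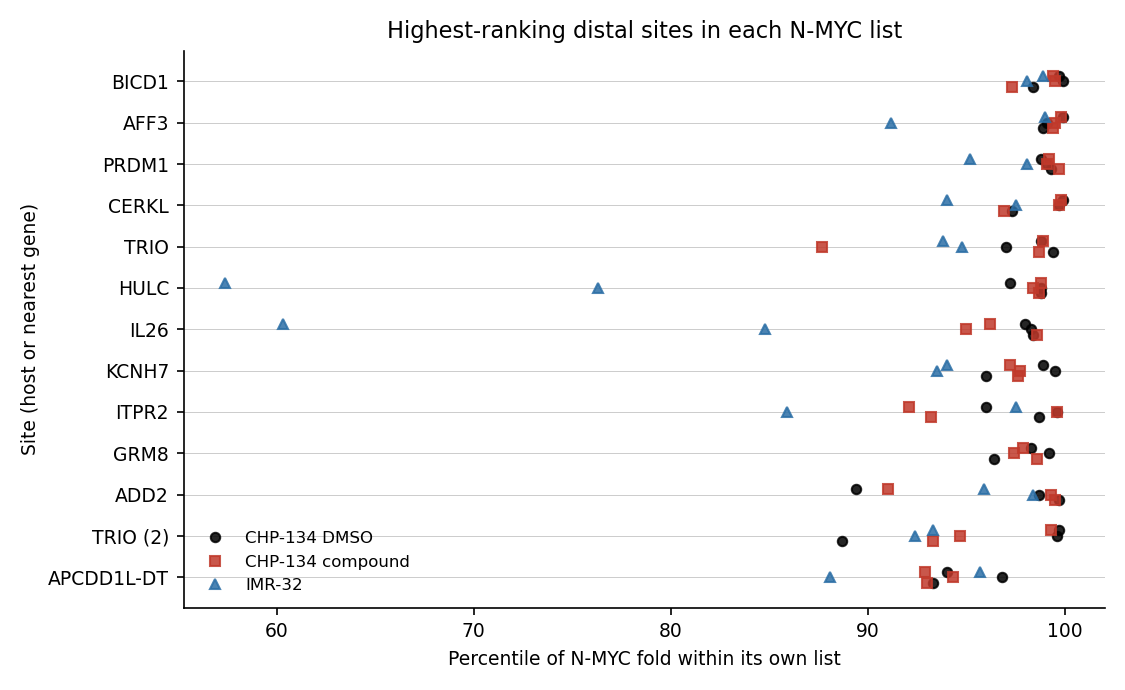
Percentile of N-MYC fold within its own list (horizontal axis) for the 13 sites named by rank (rows, by host or nearest gene) in the DMSO, compound and IMR-32 lists, with 1 point per list. ADD2, the second TRIO site and APCDD1L-DT were picked by their compound and IMR-32 percentiles. CHP-134 points of both treatments lie between 87.7 and 99.9, while IMR-32 points reach down to 57.4 for HULC and 60.3 for IL26 and are missing for GRM8.

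Distal sites were spread over the genome, mostly 1 by 1. They fell into 1043 bins of 1 Mb, of which 610 held 1 site, 42 held at least 5 and 1 held at least 10. That bin, chr16:85000001-86000000, held 17 of the 1829 sites and 30 N-MYC sites in all, around GSE1, GINS2 and COX4I1. The next bins were chr17:77000001-78000000 with 9 sites (RBFOX3), and chr16:49000001-50000000 (ZNF423), chr17:55000001-56000000 (MSI2) and chr7:69000001-70000000 (AUTS2) with 8 each. AUTS2, RBFOX3, MSI2 and ZNF423 are known for roles in neural cells. By nearest protein-coding TSS, AUTS2 had 13 sites, GSE1 9, BCOR, RBFOX3 and TYW1 7 each, and SOX11 and SULF2 6 each, out of 1379 genes of which 1084 had 1 site. Per Mb, chromosome 17 held 1.15 sites, chromosome 20 held 0.984 and chromosome 7 held 0.974, against 0.377 for chromosome 4 and 0.116 for X. Of the 832 N-MYC sites on chromosome 17, 11.2% were distal sites without WDR5, with 19.3% on chromosome 20, 23.4% on chromosome 7, 15.5% on chromosome 4 and 11.6% on X, so that chromosome 17 had the highest density of these but the lowest share.

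Sites no more than 12500 bp apart were joined into clusters. There were 1572 sites alone, 108 clusters of 2, 11 of 3 and 2 of 4. The clusters of 4 were in BCOR, a transcriptional corepressor gene (chrX:40012795-40018039), and in ZNF423, a zinc finger gene of neural progenitors (chr16:49732249-49736563). Clusters of 3 lay at RTN4R, the receptor of the axon growth inhibitor Nogo (chr22:20227744-20234858), in FARP1 (chr13:98931638-98942311), and near DHCR7, an enzyme of cholesterol synthesis (chr11:71107300-71114289).

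Genes of the neuroblastoma cell identity were looked up next. Of 20176 protein-coding genes, 12.0% had a distal site without WDR5 within 100 kb of a TSS. In a list of 26 transcription factors of the adrenergic neuroblastoma state 8 had one (30.8%), in a list of 20 receptors and genes of catecholamine synthesis 7 (35.0%), in 33 axon guidance genes 6 (18.2%), in 13 genes of the MYC and MAX network 2 (15.4%), in 45 large subunit ribosomal protein genes 4 (8.89%), and in 26 transcription factors of the mesenchymal state 2 (7.69%). The adrenergic, catecholamine, axon guidance and MYC and MAX network lists were thus above the share of all coding genes. The ribosomal and mesenchymal lists were below it, with 2 to 8 genes behind each share of the 6 lists and no test. The lists were written with earlier results of these data known.

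Sequences of sites near INSM1 and TCF3, both of the adrenergic list, are shown because they stood among the upper ranks, with the same capitals as above.
INSM1, chr20:20433111-20433211: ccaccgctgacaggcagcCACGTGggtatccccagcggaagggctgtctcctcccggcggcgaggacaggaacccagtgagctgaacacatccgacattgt
TCF3, chr19:1672470-1672570: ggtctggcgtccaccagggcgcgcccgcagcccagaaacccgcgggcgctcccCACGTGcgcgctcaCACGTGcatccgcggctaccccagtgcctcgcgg
INSM1 codes for a zinc finger factor of neuroendocrine cells. Its site lay 84.4 kb from its TSS, in an intron of RALGAPA2 (chr20:20432894-20433443), had CACGTG and was at percentiles of 95.5, 82.0 and 93.9 with DMSO, 87.5, 80.4 and 96.1 with the compound, and 94.0 and 97.5 in IMR-32. TCF3, the basic helix-loop-helix partner E2A, had a site 20 kb away (chr19:1672232-1672917) with 2 copies of CACGTG in the bases shown, at 88.1, 89.2 and 71.3 with DMSO, 81.2, 28.7 and 36.6 with the compound, and 97.7 and 71.5 in IMR-32, and a second, weaker site 73.6 kb away in 2 DMSO lists and no other.

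NEUROD1, a basic helix-loop-helix factor of neuronal differentiation, was 58.2 kb from the CERKL site shown above (chr2:182486708-182487314). That site was at 99.9, 99.7 and 97.3 with DMSO, 99.8, 99.7 and 96.9 with the compound, and 94.0 and 97.5 in IMR-32, with CATGTG and no CACGTG. EYA1, a transcriptional coactivator of placode and neural development, had a site in its own intron at 89.2, 26.5 and 81.4 with DMSO, 98.3, 50.3 and 64.6 with the compound, and 85.1 in 1 IMR-32 list. SOX11, a high-mobility-group factor of immature neurons, had sites at 18.7 and 23.4 kb, each in 2 DMSO and 2 compound lists and in neither IMR-32 list. HAND1 had 1 site at 72.9 kb, at 34.4, 50.1 and 43.7 with DMSO and at 25.1 in 1 compound list, and ZNF536 had 1 in its own intron, in 2 DMSO lists at 77.2 and 41.7 and in 1 compound list at 72.8. Of the sites named at genes of the adrenergic list, those at INSM1, TCF3 (the nearer) and NEUROD1 were in both IMR-32 lists.

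For the other lists sites are named after their values were seen. TH, the rate-limiting enzyme of catecholamine synthesis, had a site 19.1 kb away (chr11:2211776-2212590) with CACGTG, at 91.4, 90.7 and 48.6 with DMSO, 82.4, 60.0 and 79.1 with the compound, and 77.9 and 89.6 in IMR-32. DDC, the next enzyme of that pathway, had one 76.0 kb away in its own intron (chr7:50535568-50536166) with CACGTG, at 86.2, 87.1 and 64.4 with DMSO, 79.9 and 76.0 in 2 compound lists, and 86.4 and 93.0 in IMR-32. The vesicular transporter gene SLC18A2 had one in a coding exon 16.7 kb away, in 2 DMSO lists and 1 compound list. NGFR, the low-affinity neurotrophin receptor, had 2 sites, both with CACGTG and both in the 2 IMR-32 lists. The nearer one (chr17:47592409-47593060) was at 86.4, 81.6 and 69.7 with DMSO, 89, 14.7 and 76.2 with the compound, and 95.9 and 97.1 in IMR-32. ALK, a receptor tyrosine kinase of developing neurons, had a site 11.1 kb from a TSS in its own intron (chr2:29929202-29929646) at 64.4 and 66.8 in 2 DMSO lists and 65.7 and 75.5 in 2 compound lists, and in neither IMR-32 list. CHGA, the secretory granule protein chromogranin A, had 2 sites and GFRA2, a coreceptor of neurturin, had 1. In all, the 7 genes held 9 sites, of which 6 were in both IMR-32 lists.

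The axon guidance genes with a site were UNC5A, UNC5B, UNC5C, PLXNA1, EPHB2 and EFNA5, with 1 site each and none in an IMR-32 list. MXD1 and MLXIPL, both partners or relatives of MAX, had 1 site each, both in 2 of the 3 DMSO lists. RUNX2 and NOTCH3 of the mesenchymal list had 1 intronic site each, listed in 3 DMSO and 2 compound lists and in neither IMR-32 list. The ribosomal protein genes RPL30, RPL32 and RPL36 had 1 site and RPLP2 had 3 within 100 kb, all of which lay nearer to another gene.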

How the data were processed

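CHP-134 chromatin from 3 immunoprecipitations was pooled per library, and reads were trimmed, aligned to hg19 with Bowtie2 and called in each library with MACS2 at a q-value of 0.05 by the authors; tool versions and the control used are not given in the sources used here. The 16 deposited peak lists give the fold, a linear ratio over local background, the −log10 p-value and q-value, the summit, and a deposited score that was not used. The lists hold no read counts, so depth is unknown, the intervals given cover the number of sites only, and folds were never compared between lists, only their percentiles within one. The 6 control (IgG) samples were not analysed here.

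Regions were joined with python 3.11.15, pandas 2.3.3 and numpy 2.4.6, and transcription start sites (84651) came from basic coding and long noncoding RNA transcripts of GENCODE 44 on GRCh37. Sequence was read with pysam 0.24.0 from GRCh37. Windows for motifs reached 100 bp to each side of the summit of the DMSO peak with the highest −log10 q-value, as deposited, and control windows lay 2 kb to each side. Tests were two-sided exact permutation tests over libraries, checked against scipy 1.17.1 on simulated data. The joining and lookup of regions, the TSS distances and the motif search were also tested on simulated data, and the other steps were not. The p-values are unadjusted. None was below 0.05, and with these numbers of lists none could be, so adjustment would change no call. The study's methods call its ChIP-seq experiments independent repeats but name no separate cultures for each library, so p-values measure only the spread between these libraries. Libraries with the same number deviated together between DMSO and compound (r = 0.375, 0.317 and 0.384 over 20010 regions, against −0.237 to −0.135 for other numbers). The value correlated was the percentile of fold, 0 where there was no peak, minus the mean of the treatment's 3 libraries. That subtraction pushes the values for other numbers below 0 when those for the same number are above it. The negative values are therefore no separate evidence. Library 2 was also the shortest N-MYC list of each treatment (9125 and 2964 peaks), and a part of list length in r was not tested. The numbers may pair the samples, which these values do not settle. The main tests of DMSO against compound did not use this pairing, which was tried only as an alternative.

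Numbers were given to the 10 sites with the highest mean percentile in the DMSO lists, the 10 highest over the 5 lists outside the choice among sites in all 8 lists, sites within 100 kb of genes of the adrenergic list, the 5 fullest 1 Mb bins and 5 largest clusters, and the sites next to each threshold. Some items that this rule takes in are not reported here. The members, lists and motifs were chosen with earlier results of these data known. Alternatives changed the number of libraries required, the q threshold, the TSS distance and set, the WDR5 rule, the motif window, the number of peaks per list and the libraries included.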

Additional observations from a re-analysis of the deposited data

Results flagged for a closer look

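In compound WDR5 library 1, which none of the comparisons of N-MYC sites used to choose a site, 34.1% of 5973 peaks lay more than 10 kb from a TSS and 52.0% within 1 kb. It was picked out because the DMSO WDR5 lists had 15.6%, 8.13% and 15.3% of peaks over 10 kb, the IMR-32 WDR5 lists 9.75% and 9.22%, and compound WDR5 library 3, with 401 peaks, 7.48%. Compound WDR5 library 2 held 15 peaks. Library 1 also listed 104 of the 1829 distal N-MYC sites, the most of the 5 WDR5 lists outside the choice. Groups of 2 or 3 libraries are too small for a search for outlying samples.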

How the results depend on the processing

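The number of sites was 4508 with a peak in any 1 library, 906 with peaks in all 3, 1110 at more than 25 kb from a TSS, and 1027 to 1492 with each DMSO library left out in turn. The CACGTG share was 26.1% with any 1 library, 40.4% with all 3, 37.3% with a −log10 q of at least 5, 26.7% within 50 bp, 41.3% within 250 bp, 37% and 35.7% at the summits of DMSO libraries 2 and 3, and 35.6 to 39.2% with a library left out. The mean IMR-32 listing was 16.2% with any 1 library and 42.4% with all 3. The cause of these moves was not tested. Distal minus promoter listing was negative in all 17 settings (-12.9 to -3.40, exact permutation p from 0.063 to 0.312), as was distal without minus with WDR5 (-26.6 to -14.3). The DMSO minus compound difference in listing was -3.54 without compound library 2 (-3.54 to 23.2 with a library left out), and that in the distal share of peaks was -0.583 without it (-0.583 to 2.89) and -1.66 with 2964 peaks per list. DMSO minus IMR-32 was -0.0559 with a −log10 q of at least 5, -0.316 with all start sites, -1.57 with 5242 peaks per list and -1.60 to 1.94 with a library left out (-1.04 without DMSO 1, -0.0337 without DMSO 3, -1.60 without IMR-32 2). With the replicate number as a block the differences stayed at 13.2 and 1.47 points (exact permutation p = 0.500 for both, 0.25 being the smallest possible), a design too small to bear on stability. Read depth is unknown for every list.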
